A study of Alligator mississippiensis with 17 samples.

Results

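The collagen chain genes are the rows of the expression table whose symbol has the form COL, a number, A and a number. Of the 20703 genes in the table, 39 met this rule. They comprised 10 fibrillar chains, 8 basement membrane chains, 10 chains of fibril-associated collagens with interrupted triple helices (FACITs) and 11 others. The others were 3 type VI chains, 2 type VIII chains, the type VII chain, 4 transmembrane chains and COL28A1. Tissue came from American alligators, which were laboratory-raised, untreated and 1 year old, with a rearing temperature of 30 degrees for all groups, and no genotype or strain is given. There were 17 RNA sequencing libraries, with 5 from replacement teeth (RT) and 12 from the dental lamina, the epithelial strand from which alligator teeth bud. The lamina libraries were labelled pre-initiation (PIS, 5 libraries), initiation (IS, 3 libraries) and early growth (EG, 4 libraries). Both tissues were dissected whole, so each library mixes the cell types of a tooth or lamina and whatever was dissected with it. Whether each replicate is another animal is not stated in the labels, so p-values speak only of the spread among the sampled libraries, which may be technical. Levels are RPKM, reads scaled to the length of the gene model and to the library's alignments, so that levels of different genes can be compared.

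Collagens are secreted or membrane-bound proteins in which polypeptide chains wind into a triple helix. Fibrillar collagens build the fibres of bone, dentin, ligament and connective tissue, with type I the main organic component of dentin and bone, while FACITs lie on the surface of those fibres. Type IV collagens form the sheet-like network of basement membranes, such as that between dental epithelium and mesenchyme, and types VII and XVII help to fasten epithelium to it. Type VI collagen forms beaded microfilaments around cells of soft connective tissue.

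Libraries held between 9667270 alignments (PIS replicate 3) and 37747400 alignments (EG replicate 4). Epithelial markers (6 measured, among them KRT14 and CDH1) summed to 92.8 to 526 RPKM in RT, 83.8 to 579.6 in PIS, 660.4 to 779.8 in IS and 716 to 940.4 in EG, and 11 of the 12 lamina libraries reached 421 or more. The exception was PIS replicate 5, at 83.8 RPKM below every RT library, so these markers did not set it apart from the teeth. PIS replicates 1, 2 and 4 (508, 421 and 502 RPKM) also lay below RT replicate 2, at 526. All IS and EG libraries lay above all RT libraries. Fibroblast and mesenchyme markers (7 measured) summed to 826 to 1831 RPKM in RT, 1485 to 2111 in PIS, 1283 to 1949.9 in IS and 914 to 1258 in EG, so the dissected lamina was not epithelium alone. Odontoblast and bone markers (7 measured) summed to 233 to 3667 RPKM in RT, against 44.0 to 204 in lamina. Ameloblast markers (3 measured) summed to 21.2 to 5785 RPKM in RT, 0 to 3.70 in PIS, 0.231 to 0.855 in IS and 137 to 2512 in EG. Cartilage markers (5 measured) summed to at most 30.2 RPKM in any library and skeletal muscle markers (3 measured) to at most 7.94. A sum is weighted to the most abundant markers of its list. The odontoblast and bone list and the fibroblast list each held markers called higher and markers called lower in RT. Fewer cells of a type and less RNA per cell cannot be told apart in such tissue, here and in all that follows.

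Collagen transcripts took 2.29 to 20.7% of all summed RPKM in RT, 2.46 to 3.94% in PIS, 1.84 to 4.69% in IS and 1.47 to 2.38% in EG. The level of single members spanned from 0 to 27679.7 RPKM. COL1A1 was the most abundant of the 20703 genes in 8 libraries (RT replicates 3, 4 and 5, PIS replicates 1, 3, 4 and 5, and IS replicate 2) and ranked between 2 and 6 in the others. Type I chains made up 85.4 to 96.9% of the collagen RPKM in RT and 62.1 to 79.4% in lamina. At the other end, COL4A4 and COL4A3, chains of a type IV network known from the mammalian kidney glomerulus, reached at most 0.0971 and 0.387 RPKM. COL25A1, a transmembrane chain, reached 2.87 RPKM in PIS replicate 1 and stayed under 1 RPKM in the other 16 libraries. These 3 members were not tested, since a gene was tested where 3 or more of the fitted libraries reached 1 RPKM.

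**Figure D1:**
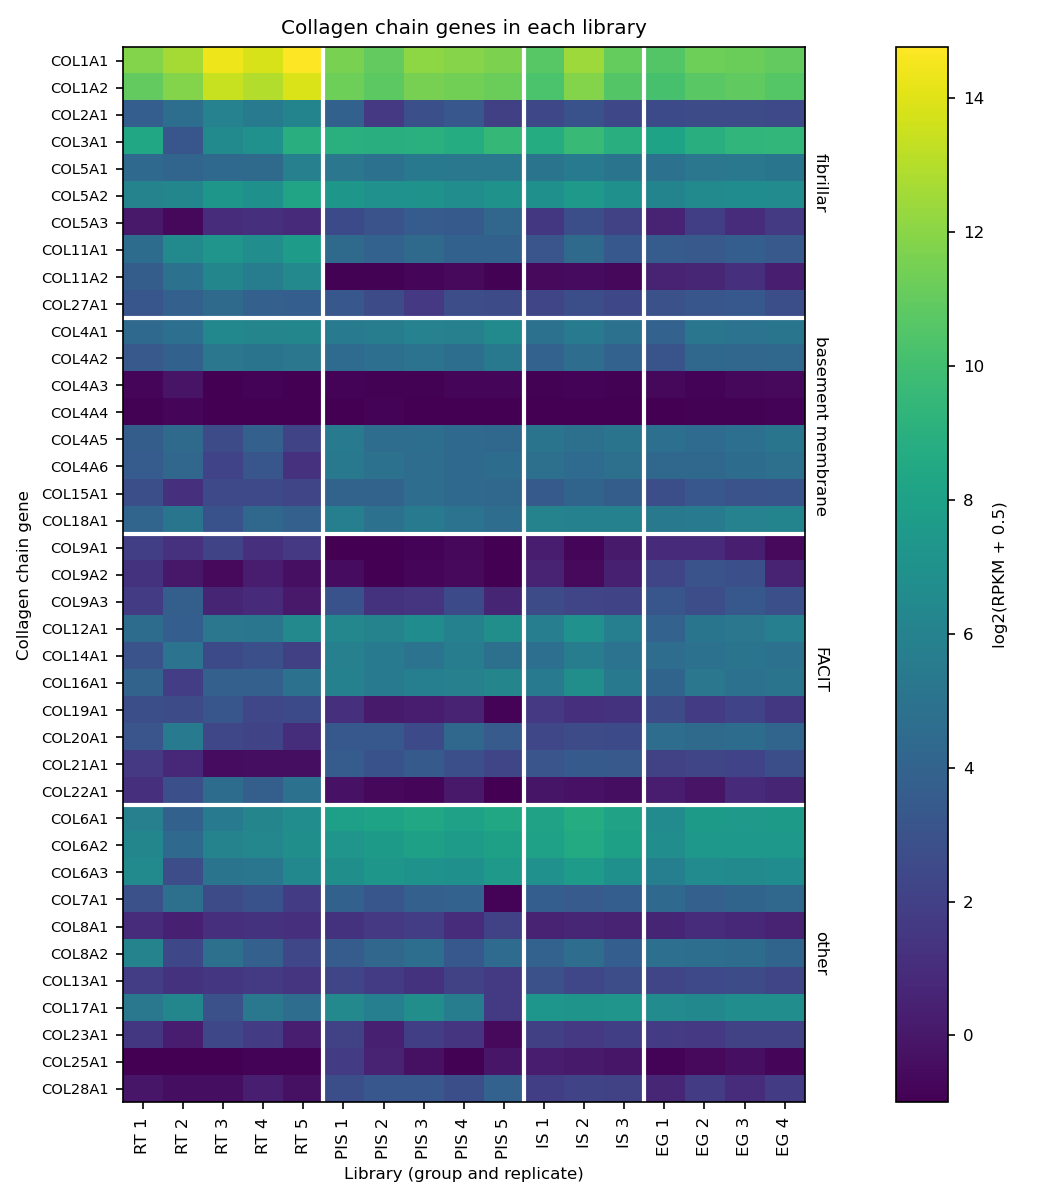
Level of each of the 39 collagen chain genes (rows, by class) in each of the 17 libraries (columns, RT, then PIS, IS and EG), as log2(RPKM + 0.5) in colour. Lighter is higher. The type I chains are the brightest rows in every library, and COL11A2 and COL22A1 are brighter in the RT columns than in the lamina columns.

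Replacement teeth were set against the dental lamina to ask which collagens distinguish a forming tooth from the strand that buds it. Of 36 members tested, 9 were higher and 15 lower in RT than in lamina. Among all 12904 genes tested, 10.5% were called higher, 36.3% lower and 46.8% in either direction. The fibrillar class held 6 of the 9 higher members, with 3 lower among its 10. Basement membrane chains had 0 higher and 4 lower of 6 tested, FACITs 3 higher and 3 lower of 10, and the other chains 0 higher and 5 lower of 10. The median log2 fold change was 1.39 over the fibrillar members, -1.46 over the basement membrane members, -0.72 over the FACITs and -1.13 over the others, beside -0.24 over all genes tested. Fold changes are RT minus the mean of the 3 stage means of log2(RPKM + 0.5), a scale that understates changes of genes near 0, and a gene was called at a limma adjusted p under 0.05. Median-ratio scaling, which removes the shift of the median gene, left 23 of the 24 calls, 9 higher and 14 lower, beside 20.0% and 17.5% of all genes (37.6% in either direction). The members with no overlap between the 5 RT and 12 lamina libraries numbered 4 higher (COL11A2, COL11A1, COL22A1 and COL9A1) and 4 lower (COL21A1, COL28A1, COL15A1 and COL4A6), beside 2.13% and 6.08% of all genes. Of these, COL22A1 and COL9A1 each reached 1 RPKM in 5 RT and 2 lamina libraries. They are also among the 9 called higher, and were tested through RT, where they were high. COL28A1 reached 1 RPKM in 0 RT and 12 lamina libraries, and COL21A1 in 2 RT and 12 lamina libraries. Both are among the 15 called lower, and were tested through lamina, where they were high.

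The type I chains, whose products build the fibres of dentin and bone, were higher in RT. COL1A1 stood at 3675, 6355, 21057, 14279 and 27679.7 RPKM in RT replicates 1 to 5, against 1471 to 5587 RPKM (median 2392) in the 12 lamina libraries. RT replicate 1 lay within the lamina range and the other 4 above it, and the log2 fold change was 2.14 ± 0.43 (SE, limma adjusted p = 0.000815). COL1A2, the partner chain, was at 1983, 3601, 11094, 7967 and 14643 RPKM in RT, against 1177 to 3650.4 RPKM (median 1841) in the 12 lamina libraries. Here RT replicates 1 and 2 lay within the lamina range, and the fold change was 1.68 ± 0.39 (SE, limma adjusted p = 0.00271), a call lost when the libraries with the highest values, RT replicates 3 and 5, were both left out (0.99, adjusted p = 0.0587). The odontoblast and bone markers summed to 233, 396, 1053, 733 and 3667 RPKM in RT replicates 1 to 5, so the libraries took the same order as for COL1A1. SPP1 alone stood at 3046 RPKM in RT replicate 5. Of the 7 markers, 3 were called higher and 2 lower in RT, beside 10.5% and 36.3% of all genes. After scaling 3 were higher and 1 lower, beside 20.0% and 17.5%. The part of these cells in the type I levels was not tested.

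Type III went the other way. COL3A1, the chain of a fibrillar collagen of soft and vascularised connective tissue, stood at 329.9, 8.79, 94.3, 126 and 467 RPKM in RT, against 277 to 799 RPKM (median 503) in the 12 lamina libraries. RT replicates 2, 3 and 4 lay below every lamina library, while replicates 1 and 5 lay inside the lamina range. The fold change was -2.23 ± 0.61 (SE, limma adjusted p = 0.00784). RT replicate 2 also had the lowest COL6A3, at 6.06 RPKM, and the lowest fibroblast marker sum of the RT libraries, 826 RPKM. The sums were 1047, 826, 1831, 1506 and 1471 RPKM in RT replicates 1 to 5. The libraries thus did not take the same order as for COL3A1. Those sums mix markers that went both ways. Of the 7, 2 were called higher and 3 lower in RT against lamina, beside 10.5% and 36.3% of all genes. After scaling 2 were higher and 2 lower, beside 20.0% and 17.5%. The part of those cells in the COL3A1 difference was not tested.

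The greatest difference of any member was that of type XI, a minor fibrillar collagen best known from cartilage fibrils, where it limits their diameter. COL11A2 was measured at 12.01, 30.8, 73.5, 48.8 and 85.3 RPKM in RT, against 0.0298 to 1.69 RPKM (median 0.156) in the 12 lamina libraries. The lowest RT library was 12.01 RPKM and the highest lamina library 1.69, and the fold change was 5.61 ± 0.32 (SE, limma adjusted p = 3.46e-09). COL11A1 stood at 22.9, 91.8, 147, 106 and 201 RPKM in RT, against 8.56 to 21.4 RPKM (median 13.3) in the 12 lamina libraries. The groups were again separate, RT replicate 1 by the least, and the fold change was 2.77 ± 0.35 (SE, limma adjusted p = 1.75e-05).

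COL2A1, the chain of the main cartilage collagen, was at 12.3, 25.9, 62.1, 43.5 and 67.6 RPKM in RT, against 2.60 to 14.4 RPKM (median 5.40) in the 12 lamina libraries. RT replicate 1 lay below PIS replicate 1 and the other 4 RT libraries above all lamina libraries (2.55 ± 0.37 (SE, limma adjusted p = 5.8e-05)). The cartilage markers that were measured beside it summed to 13.3 to 30.2 RPKM in RT, 4.90 to 23.5 in PIS, 11.3 to 23.4 in IS and 15.7 to 23.6 in EG, and of the 3 tested HAPLN1 was higher in RT and COMP lower, the COMP call being lost after scaling (adjusted p = 0.197). COL27A1, a fibrillar chain also known from cartilage, averaged 14.04 ± 4.48 RPKM in RT (SD, n = 5) and 6.36 ± 2.04 in lamina (SD, n = 12), a difference of 1.10 ± 0.22 (SE, limma adjusted p = 0.000817).

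Type V collagen nucleates type I fibrils, and its chains did not move together. COL5A3 was lower in RT, at 0.543, 0.141, 1.47, 1.69 and 1.36 RPKM, against 0.936 to 17.8 RPKM (median 4.46) in the 12 lamina libraries (-1.77 ± 0.33 (SE, limma adjusted p = 0.000432)), and the highest RT values overlapped with EG replicates 1 and 3. Set against EG alone, COL5A3 was not called (-0.81, adjusted p = 0.111). COL5A1 was at 20.6, 16.8, 20.5, 21.4 and 56.8 RPKM in RT, against 28.3 to 44.3 RPKM (median 37.7) in the 12 lamina libraries. RT replicates 1 to 4 lay below all lamina libraries and replicate 5 above them. It was called lower (-0.55 ± 0.20 (SE, limma adjusted p = 0.0357)), but not after median-ratio scaling (-0.29, adjusted p = 0.367). The call was also lost without any one of 7 libraries, namely RT 1, 2, 3 or 4, IS 2, or EG 2 or 3 (adjusted p = 0.0516 to 0.109). COL5A2, which was not called, averaged 143 ± 91.5 RPKM in RT and 118 ± 31.04 in lamina.

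**Figure D2:**
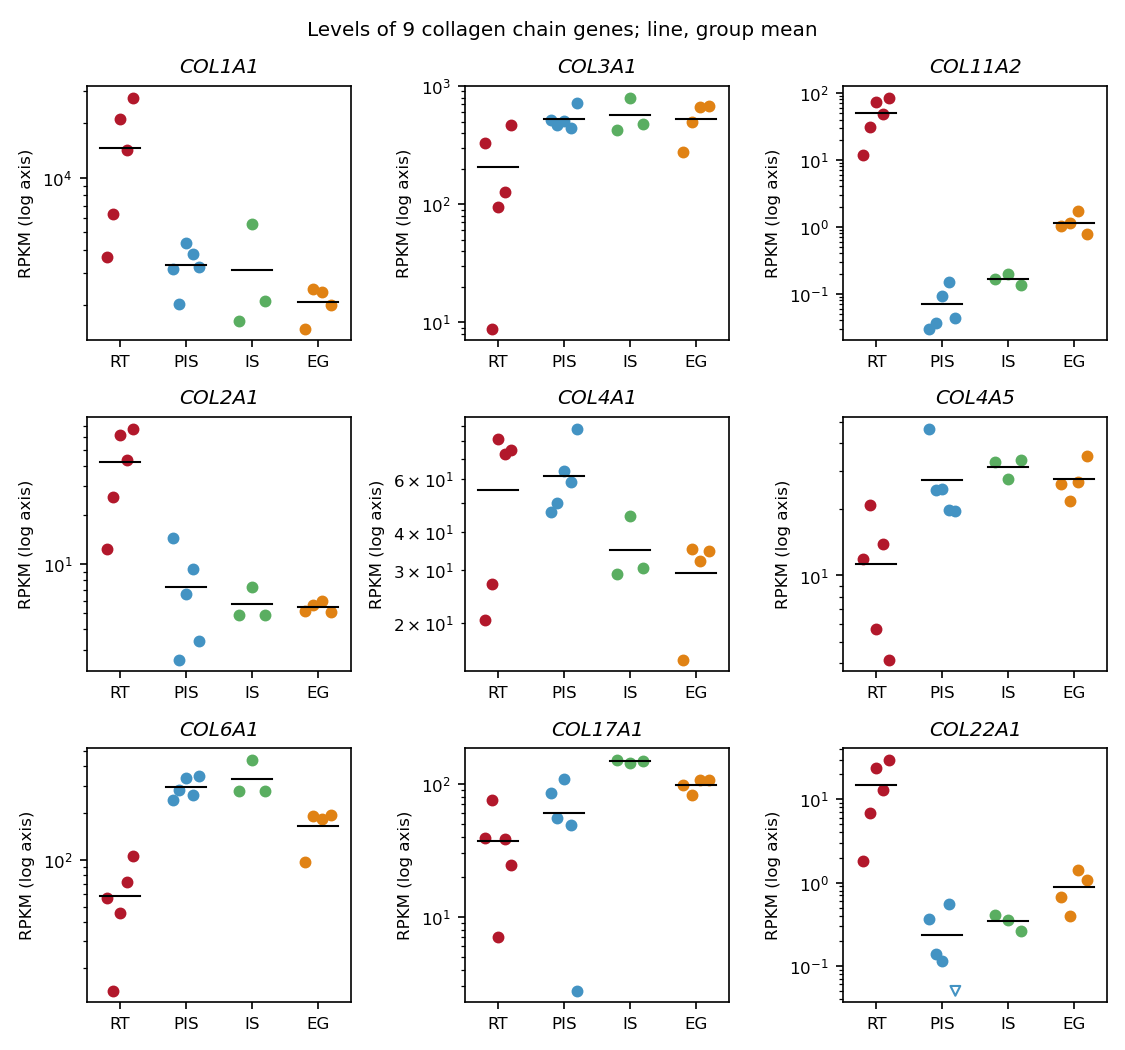
RPKM of 9 collagen chains in each library on log axes, with RT left of PIS, IS and EG. Points are libraries, lines are group means, and the open triangle marks PIS replicate 5, where COL22A1 is listed at 0 and has no place on a log axis. COL11A2 and COL22A1 lie higher in all 5 RT libraries than in any lamina library.

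Basement membrane chains split by gene pair. COL4A1 and COL4A2, the chains of the type IV network found in nearly all basement membranes, were not called. COL4A1 stood at 20.4, 27.05, 81.6, 72.9 and 74.8 RPKM in RT, against 15.1 to 88.1 RPKM (median 40.2) in the 12 lamina libraries (0.31 ± 0.30 (SE, limma adjusted p = 0.423)). COL4A2 stood at 9.99, 14.5, 38.3, 32.4 and 38.1 RPKM, against 7.87 to 41.4 RPKM (median 21.2) in the 12 lamina libraries (0.23 ± 0.30 (SE, limma adjusted p = 0.534)). RT replicates 1 and 2 were low for both and the other 3 in the upper part of the lamina range. The sign of both turned without RT replicates 3 and 5 (-0.16 and -0.23) and with PIS alone as the reference (-0.32 and -0.29), all uncalled.

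COL4A5 and COL4A6, the chains of a type IV network known from mammalian skin and smooth muscle, were lower in RT. COL4A6 was at 11.3, 17.5, 4.06, 8.78 and 1.88 RPKM, against 19.4 to 41.7 RPKM (median 23.7) in the 12 lamina libraries, with no overlap (-1.79 ± 0.33 (SE, limma adjusted p = 0.000498)). COL4A5 was at 11.8, 20.9, 5.71, 13.9 and 4.13 RPKM, against 19.7 to 46.8 RPKM (median 26.5) in the 12 lamina libraries, and overlapped through RT replicate 2 (-1.48 ± 0.29 (SE, limma adjusted p = 0.00066)). The multiplexins COL15A1 and COL18A1, whose products sit in basement membrane zones and end in the fragments restin and endostatin, were lower too. COL15A1 was at 6.48, 1.69, 5.09, 5.06 and 4.48 RPKM, against 6.49 to 24.2 RPKM (median 13.7) in the 12 lamina libraries, and RT replicate 1 lay just below the lowest lamina library (-1.45 ± 0.21 (SE, limma adjusted p = 4.94e-05)). COL18A1 averaged 18.1 ± 9.77 RPKM in RT and 49.2 ± 14.9 in lamina (-1.57 ± 0.25 (SE, limma adjusted p = 0.000154)). Endothelial markers (6 measured) summed to 10.3 to 36.6 RPKM in RT and 28.7 to 135 in lamina, with 0 higher and 3 lower in RT (0 and 1 after scaling). Mural and smooth muscle markers (6 measured) summed to 59.6 to 99.5 in RT and 101 to 404 in lamina, with 0 higher and 5 lower on both scales. Of all genes 10.5% were called higher and 36.3% lower, and 20.0% and 17.5% after scaling. Their part in the basement membrane chains was not tested.

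Of the FACITs, 3 rose and 3 fell, beside 10.5% and 36.3% of all genes. COL22A1, whose product is known from tissue junctions such as that of muscle and tendon in zebrafish and mouse, was at 1.82, 6.78, 23.6, 13.01 and 30.1 RPKM in RT, against 0 to 1.40 RPKM (median 0.381) in the 12 lamina libraries. It was listed at 0 in PIS replicate 5, and the groups were separate (3.58 ± 0.43 (SE, limma adjusted p = 1.03e-05)). COL9A1, a type IX chain that in cartilage coats type II fibrils, was at 3.23, 1.88, 4.12, 1.72 and 2.57 RPKM in RT, against 0 to 1.38 RPKM (median 0.140) in the 12 lamina libraries, also separate (1.84 ± 0.25 (SE, limma adjusted p = 2.78e-05)). COL22A1 and COL9A1 passed the filter on low values through RT, and with lamina alone neither was tested, so their p is no support for the difference. COL19A1, a minor basement membrane zone FACIT, was at 6.33, 5.54, 8.86, 4.53 and 5.28 RPKM in RT, against 0.0622 to 5.73 RPKM (median 1.88) in the 12 lamina libraries (1.48 ± 0.25 (SE, limma adjusted p = 0.000214)). Its overlap was with EG, and with EG alone as the reference it was not called (0.66, adjusted p = 0.0922).

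Among the falling FACITs, COL21A1, known from blood vessel walls in human tissue, stood at 2.61, 1.22, 0.211, 0.258 and 0.245 RPKM in RT, against 3.71 to 11.3 RPKM (median 6.98) in the 12 lamina libraries. All 5 RT libraries lay below all lamina libraries (-2.68 ± 0.30 (SE, limma adjusted p = 6.14e-06)). COL21A1 reached 1 RPKM in 2 RT libraries and passed the filter through lamina, so its p is no support for the difference. COL14A1, whose product binds the surface of type I fibrils, was at 7.63, 32.1, 5.35, 6.77 and 3.48 RPKM in RT, against 24.1 to 57.4 RPKM (median 31.6) in the 12 lamina libraries. RT replicate 2 lay among the lamina libraries and the other 4 below them (-2.04 ± 0.34 (SE, limma adjusted p = 0.000216)). COL16A1, another minor FACIT, averaged 15.2 ± 9.68 RPKM in RT and 49.8 ± 23.8 in lamina (-1.82 ± 0.36 (SE, limma adjusted p = 0.000773)). The 4 uncalled FACITs had means of 38.6 ± 27.1 in RT and 65.8 ± 32.2 RPKM in lamina for COL12A1, 12.1 ± 16.9 and 13.1 ± 7.66 for COL20A1, 0.720 ± 0.749 and 1.86 ± 2.79 for COL9A2, and 3.77 ± 5.26 and 5.22 ± 2.63 for COL9A3.

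All 3 type VI chains, which together form the beaded microfilaments, were lower in RT. COL6A1 was at 57, 14.3, 45.4, 72.2 and 105 RPKM in RT, against 97.2 to 441 RPKM (median 268) in the 12 lamina libraries. Only RT replicate 5 reached the lamina range, above EG replicate 1 alone (-2.31 ± 0.32 (SE, limma adjusted p = 4.16e-05)). COL6A2 averaged 69.9 ± 33.2 RPKM in RT and 213 ± 75.3 in lamina (-1.76 ± 0.28 (SE, limma adjusted p = 0.000154)). COL6A3 averaged 49.5 ± 35.3 and 125 ± 40.5 RPKM (-1.73 ± 0.43 (SE, limma adjusted p = 0.00391)), and was not called against EG alone (-1.23, adjusted p = 0.0701). COL28A1, a chain with domains like those of type VI that is known from peripheral nerve in mouse, was at 0.467, 0.260, 0.258, 0.765 and 0.307 RPKM in RT, against 1.12 to 15.1 RPKM (median 4.04) in the 12 lamina libraries. The groups did not overlap (-2.38 ± 0.21 (SE, limma adjusted p = 4.96e-07)). COL28A1 reached 1 RPKM in 0 RT libraries and passed the filter through lamina, where it was high. Its p is therefore no support for the difference. Schwann and nerve markers (4 measured) summed to 0.930 to 4.63 RPKM in RT and 7.24 to 278 in lamina. Of the 4, 0 were higher and 4 lower, beside 10.5% and 36.3% of all genes. After scaling the counts were the same, beside 20.0% and 17.5%. The part of these cells in COL28A1 was not tested.

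The chains that anchor epithelium were variable. COL17A1, the transmembrane collagen of hemidesmosomes, stood at 39.3, 75.9, 7.04, 38.3 and 24.4 RPKM in RT, against 2.77 to 152 RPKM (median 102) in the 12 lamina libraries. RT replicate 3 and PIS replicate 5 were the low libraries, and these 2 also had the lowest epithelial marker sums of their groups, 92.8 and 83.8 RPKM. The sums were 384, 526, 92.8, 355 and 439 RPKM in RT replicates 1 to 5, not in the order of COL17A1. RT replicate 5 had a higher sum than RT replicates 1 and 4 but lower COL17A1. COL17A1 was not called (-1.48 ± 0.63 (SE, limma adjusted p = 0.0638)), but was without PIS replicate 5 (adjusted p = 0.00125) or without RT replicate 2 (adjusted p = 0.0336). COL7A1, the chain of the anchoring fibrils, was at 7.06, 27.3, 5.70, 7.27 and 2.81 RPKM in RT, against 0.0452 to 20.1 RPKM (median 13.9) in the 12 lamina libraries. The lowest value was again that of PIS replicate 5, while the lowest RT value was that of replicate 5. COL7A1 was not called (-0.52 ± 0.63 (SE, limma adjusted p = 0.511)), was called lower without PIS replicate 5 (-0.83, adjusted p = 0.0459), and turned sign without RT replicates 3 and 5 (0.030) and with PIS alone as the reference (0.19). The part of the number of epithelial cells in these values was not tested. COL13A1, a transmembrane chain of cell adhesion sites, averaged 2.43 ± 0.462 RPKM in RT and 4.44 ± 1.46 in lamina (-0.77 ± 0.15 (SE, limma adjusted p = 0.000794)), a call lost with PIS alone as the reference (-0.30, adjusted p = 0.195). COL8A1, COL8A2 and COL23A1 were not called, with means of 1.57 ± 0.454, 23.5 ± 25.99 and 2.30 ± 1.71 RPKM in RT and 1.72 ± 0.921, 19.2 ± 6.08 and 2.70 ± 1.15 in lamina.

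**Figure D3:**
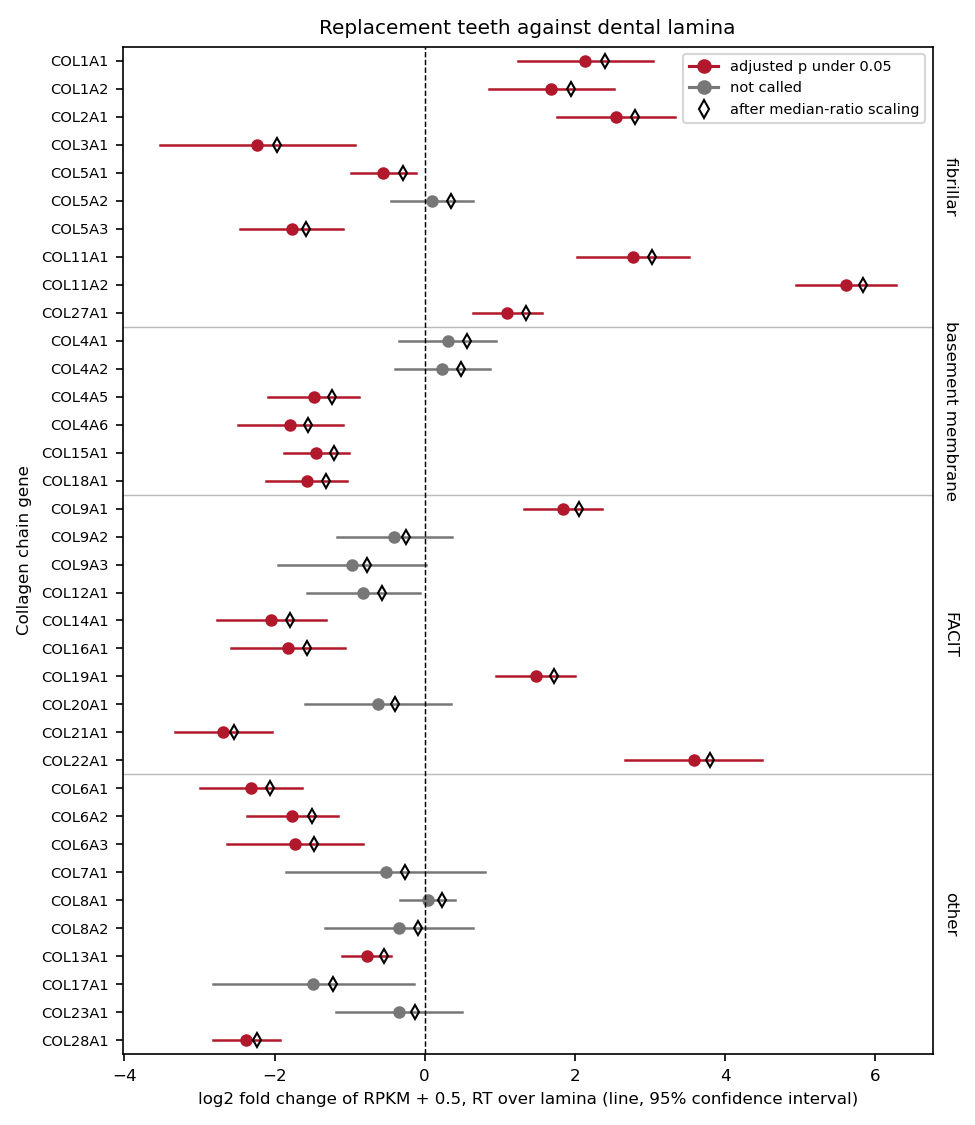
Log2 fold change of each tested member in RT against the mean of the lamina stages, by class. Lines are 95% confidence intervals from limma, red marks called members, grey the rest, and open diamonds the value after median-ratio scaling. Called fibrillar chains lie on both sides of 0, and called basement membrane chains below it.

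Chains of one molecule, of the same fibre or, for COL4A5 and COL4A1, of separate type IV networks can be compared within a library. Such a ratio does not depend on library scaling. The ratios of 9 pairs, chosen after their values were seen, were tested in RT against lamina and in EG against PIS with 2-sided exact permutation tests of the mean log2 ratio, 18 tests in all with Benjamini-Hochberg adjustment. The smallest p these designs allow is 0.000323 for RT against lamina and 0.0159 for EG against PIS. In mammals type I collagen is mostly a trimer of COL1A1 and COL1A2 chains in which COL1A1 predominates. The ratio of COL1A1 to COL1A2 in RPKM was 1.76 to 1.90 in RT and 1.14 to 1.53 in lamina, with no overlap (exact p = 0.000323, adjusted p = 0.00194). The ratio of COL3A1 to COL1A1 was 0.00138 to 0.0898 in RT and 0.116 to 0.340 in lamina, also without overlap (exact p = 0.000323, adjusted p = 0.00194). The ratio of COL11A2 to COL11A1 was 0.336 to 0.523 in RT and 0.00140 to 0.137 in lamina, with no overlap (exact p = 0.000323, adjusted p = 0.00194). COL11A2 was low in lamina, where it reached 1 RPKM in 3 of 12 libraries, so this p is no support for the difference.

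The ratio of COL6A1 to COL6A2, neighbouring genes, was 0.700 to 0.942 in RT and 0.905 to 1.63 in lamina, an overlap by EG replicate 1 with RT (exact p = 0.00097, adjusted p = 0.00436). That of COL4A1 to COL4A2, which share a locus, kept to a narrow range of 1.87 to 2.25 in RT and 1.74 to 2.35 in lamina (exact p = 0.322, adjusted p = 0.341). The remaining 4 pairs also overlapped between RT and lamina. They were COL5A1 to COL5A2 (0.127 to 0.311 in RT, 0.238 to 0.430 in lamina, exact p = 0.00614, adjusted p = 0.0221) and COL4A5 to COL4A1 (0.0551 to 0.774 in RT, 0.224 to 1.73 in lamina, exact p = 0.0229, adjusted p = 0.044). The others were COL6A3 to COL6A1 (0.422 to 1.56 in RT, 0.415 to 0.582 in lamina, exact p = 0.0259, adjusted p = 0.044) and COL4A5 to COL4A6 (1.05 to 2.19 in RT, 0.807 to 1.34 in lamina, exact p = 0.0294, adjusted p = 0.044). All 4 had an exact p above 0.05 once RT replicates 3 and 5 were both left out. COL4A5 to COL4A1 also did without RT 3 or RT 5 alone (unadjusted exact p = 0.0769 to 0.078), COL4A5 to COL4A6 without RT 3, 4 or 5 (0.0604 to 0.1) and COL6A3 to COL6A1 without RT 1, 3 or 5 (0.0813 to 0.0879).

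Across lamina stages the ratio of COL11A2 to COL11A1 was 0.0790 to 0.137 in EG and 0.00140 to 0.0104 in PIS, without overlap (exact p = 0.0159, adjusted p = 0.0357). COL11A2 was near 0 in PIS, at 0.0298 to 0.147 RPKM, so this p is no support for the difference. The ratio of COL6A1 to COL6A2 was 0.905 to 1.16 in EG and 1.23 to 1.63 in PIS (exact p = 0.0159, adjusted p = 0.0357), and that of COL4A5 to COL4A6 was 1.12 to 1.34 in EG and 0.807 to 1.12 in PIS (exact p = 0.0159, adjusted p = 0.0357), again without overlap for both. Without PIS 4 and 5, which leaves fewer permutations, these and the COL11A2 to COL11A1 ratio each had an unadjusted exact p of 0.0571. That is the smallest p the reduced design allows, so this omission could not give a p under 0.05 and does not show a weaker difference. COL5A1 to COL5A2 (0.362 to 0.430 in EG, 0.238 to 0.368 in PIS, exact p = 0.0317, adjusted p = 0.044) and COL4A1 to COL4A2 (1.74 to 1.92 in EG, 1.90 to 2.35 in PIS, exact p = 0.0317, adjusted p = 0.044) overlapped, and each had an exact p above 0.05 without any of 7 of the 9 libraries (unadjusted exact p = 0.0571 to 0.0714). For COL5A1 to COL5A2 these were PIS 1, 2, 3 or 5 and EG 1, 2 or 3, and for COL4A1 to COL4A2 they were PIS 1, 3, 4 or 5 and EG 2, 3 or 4. The other ratios, COL4A5 to COL4A1 (0.620 to 1.73 in EG, 0.224 to 1.004 in PIS, exact p = 0.0476, adjusted p = 0.0612), COL3A1 to COL1A1 (exact p = 0.111, adjusted p = 0.133), COL6A3 to COL6A1 (exact p = 0.254, adjusted p = 0.286) and COL1A1 to COL1A2 (1.22 to 1.42 in EG, 1.14 to 1.48 in PIS, exact p = 0.714, adjusted p = 0.714), did not pass after adjustment.

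**Figure D4:**
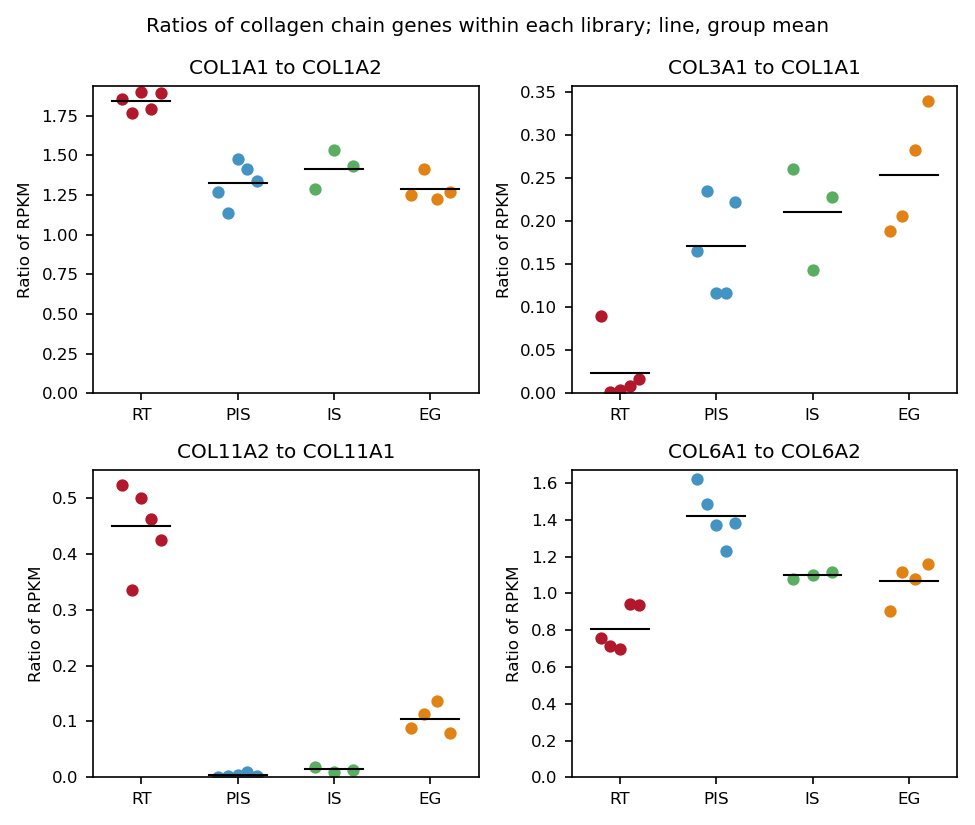
RPKM ratio of 4 chain pairs in each library, RT left of PIS, IS and EG, on axes that start at 0. Points are libraries and lines group means. The COL1A1 to COL1A2 ratio lies at or above 1.76 in all RT libraries and at or below 1.53 in all lamina libraries.

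Within the lamina, early growth and pre-initiation are the ends of the sampled cycle. Of 34 members tested, 7 were higher and 13 lower in EG than in PIS. The 7 include COL9A2 and COL11A2, which reached 1 RPKM in 0 PIS libraries, and COL19A1, which reached it in 1. These members were tested through groups in which they were higher. Among all 12684 genes tested 42.9% were higher, 7.58% lower and 50.5% called in either direction, so the collagens' balance of directions was opposite to that of all genes. The median log2 fold change was -0.36 over the collagen members and 0.34 over all genes. With median-ratio scaling there were 3 higher members and 19 lower ones, beside 16.7% and 15.4% of all genes (32.1% in either direction), and 16 members were called in both analyses. A fit of all 17 libraries called 5 higher and 6 lower. It left uncalled COL5A2, COL6A1, COL6A3, COL4A2, COL16A1, COL11A1 and COL21A1 of the lower members (adjusted p = 0.165, 0.0907, 0.269, 0.0605, 0.079, 0.273 and 0.155) and COL18A1, COL20A1 and COL9A3 of the higher ones (0.149, 0.145 and 0.0875). Groups without overlap were found for 3 members that were higher and 12 that were lower, beside 34.7% and 4.98% of all genes. The 3 were COL9A2, COL11A2 and COL19A1, each tested through groups in which it was higher. Fibroblast and mesenchyme markers had 0 higher and 5 lower of 7 in EG against PIS, endothelial markers 0 and 4 of 6, mural markers 1 and 4 of 6, Schwann markers 0 and 4 of 4, and epithelial markers 5 higher and 0 lower of 6. After scaling these counts were 0 and 6 for fibroblast, 0 and 6 for endothelial, 0 and 4 for mural, 0 and 4 for Schwann and 1 and 0 for epithelial markers. Their part in the collagen differences was not tested.

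The fibrillar chains had 1 higher and 3 lower of 10, beside 42.9% and 7.58% of all genes. COL5A3 was at 0.936, 3.35, 1.51 and 2.74 RPKM in EG, against 5.35, 7.50, 11.7, 10.5 and 17.8 RPKM in PIS. All EG libraries lay below all PIS libraries (-2.07 ± 0.36 (SE, limma adjusted p = 0.00085)). COL5A2 (-0.56 ± 0.16 (SE, limma adjusted p = 0.0142)) and COL11A1 (-0.60 ± 0.23 (SE, limma adjusted p = 0.0466)) were lower by less, with 88.5 ± 14.9 and 10.97 ± 1.20 RPKM in EG (SD, n = 4) and 129.9 ± 19.1 and 17.1 ± 3.67 RPKM in PIS (SD, n = 5). COL11A2 was higher, at 1.01, 1.14, 1.69 and 0.777 RPKM in EG, against 0.0298, 0.0370, 0.0927, 0.147 and 0.0433 in PIS (1.51 ± 0.19 (SE, limma adjusted p = 0.000158)). Its 4 EG values all exceeded those of PIS and IS, and it passed the filter on low values through 3 EG libraries, with 0 of PIS or IS, so its p is no support for the difference. The calls were lost for COL11A1 without PIS 1, 2 or 3, or EG 1, 2, 3 or 4 (adjusted p = 0.0539 to 0.104) and for COL5A2 without EG 1 (adjusted p = 0.0547).

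The type I and III chains were not called. COL1A1 stood at 1471, 2435, 2349 and 1994 RPKM in EG, against 3131, 2004, 4350.3, 3785 and 3243 in PIS (-0.66 ± 0.32 (SE, limma adjusted p = 0.103)). COL1A2 stood at 1177, 1720.0, 1922 and 1574 RPKM in EG, against 2472, 1760.2, 2946, 2679 and 2419 in PIS (-0.62 ± 0.27 (SE, limma adjusted p = 0.0733)). Both overlapped, with EG replicate 1 the lowest. Both passed after median-ratio scaling (COL1A1 -1.01, adjusted p = 0.044; COL1A2 -0.97, adjusted p = 0.0265) and without IS replicate 2 (adjusted p = 0.0278 and 0.0118), and COL1A2 also without PIS replicate 2 (0.0492). COL3A1 was at 277, 499.8, 662 and 677 RPKM in EG, against 518, 471, 506, 439 and 719 in PIS (-0.07 ± 0.26 (SE, limma adjusted p = 0.846)). EG replicate 1 lay below all PIS libraries and the other 3 EG libraries within their range.

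Of the 6 basement membrane chains tested, 1 was higher and 3 lower in EG, beside 42.9% and 7.58% of all genes. COL15A1 was at 6.49, 9.23, 7.78 and 8.003 RPKM in EG, against 15.4, 15.9, 24.2, 20.7 and 19.01 in PIS, without overlap (-1.21 ± 0.16 (SE, limma adjusted p = 0.000205)). COL4A1 was at 15.1, 35.3, 32.1 and 34.5 RPKM in EG, against 46.6, 49.9, 64.03, 58.7 and 88.1 in PIS (-1.09 ± 0.26 (SE, limma adjusted p = 0.00416)). COL4A2 was at 7.87, 19.1, 17.9 and 19.9 RPKM in EG, against 22.6, 26.2, 31.5, 24.999 and 41.4 in PIS (-0.89 ± 0.27 (SE, limma adjusted p = 0.0159)). Neither of the type IV chains overlapped between the groups, and EG replicate 1 was the lowest library for both. The COL4A2 call was lost without PIS replicates 4 and 5 (adjusted p = 0.0516). COL18A1 was higher (0.57 ± 0.22 (SE, limma adjusted p = 0.0458)), with 54.3 ± 12.5 RPKM in EG and 37.4 ± 12.6 in PIS, but not after scaling (0.22, adjusted p = 0.44). Its call was lost without any of 9 libraries, namely PIS 2, 4 or 5, IS 1, 2 or 3, or EG 2, 3 or 4 (adjusted p = 0.0533 to 0.132). COL4A5 and COL4A6 were not called, at 27.4 ± 5.46 and 22.6 ± 4.003 RPKM in EG and 27.2 ± 11.2 and 27.9 ± 8.51 in PIS, but COL4A6 was called lower after scaling (-0.61, adjusted p = 0.0212).

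Of the 8 FACITs tested, 4 were higher and 3 lower, beside 42.9% and 7.58% of all genes. After scaling 2 were higher and 4 lower, beside 16.7% and 15.4%. COL9A2, a type IX chain, was at 4.35, 7.68, 6.79 and 0.951 RPKM in EG, against 0.220, 0, 0.110, 0.166 and 0 in PIS (2.93 ± 0.44 (SE, limma adjusted p = 0.000358)). EG replicate 4 was the lowest EG library but lay above all PIS libraries, 2 of which were listed at 0. COL9A2 passed the filter on low values through 3 EG libraries and 1 IS library, with 0 of PIS, so it was tested through groups in which it was higher, and its p is no support for the difference. COL19A1 was at 5.73, 2.89, 4.01 and 2.43 RPKM in EG, against 1.67, 0.614, 0.675, 0.928 and 0.0622 in PIS (1.79 ± 0.33 (SE, limma adjusted p = 0.00113)). COL19A1 reached 1 RPKM in 1 PIS, 3 IS and 4 EG libraries, so it too was tested through groups in which it was higher. Its p is no support for the difference. COL20A1, a FACIT first described in chick embryo tissues, was at 24.1, 21.7, 23.6 and 17.4 RPKM in EG, against 9.80, 9.53, 5.36, 19.8 and 10.8 in PIS (1.05 ± 0.26 (SE, limma adjusted p = 0.00614)). COL19A1 did not overlap, and COL20A1 overlapped through PIS replicate 4. COL9A3, a further type IX chain, averaged 7.71 ± 1.66 RPKM in EG and 3.53 ± 2.58 in PIS (1.25 ± 0.38 (SE, limma adjusted p = 0.0161)). After scaling COL9A2 and COL19A1 were still called, while COL20A1 (adjusted p = 0.0557) and COL9A3 (adjusted p = 0.0645) were not.

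The 3 lower FACITs were COL12A1, COL16A1 and COL21A1. COL12A1, which binds type I fibrils, was at 14.9, 34.5, 36.8 and 55.9 RPKM in EG, against 79.4, 66.9, 100.5, 60.2 and 108 in PIS, without overlap (-1.32 ± 0.35 (SE, limma adjusted p = 0.00796)). COL16A1 was at 16.5, 38.2, 30.6 and 32.5 RPKM in EG, against 59.2, 43.1, 54.4, 57.9 and 72.5 in PIS, also without overlap (-0.99 ± 0.29 (SE, limma adjusted p = 0.0142)), a call lost without EG replicate 1 (-0.74, adjusted p = 0.0527). The COL16A1 call was also lost without PIS replicates 4 and 5 (-0.87, limma adjusted p = 0.0597). COL21A1 averaged 4.70 ± 1.27 RPKM in EG and 8.03 ± 2.87 in PIS (-0.67 ± 0.24 (SE, limma adjusted p = 0.0347)). Its call was lost without PIS 1 or 3, or EG 1, 2 or 3 (adjusted p = 0.0672 to 0.102). COL14A1, not called, averaged 29.2 ± 3.81 RPKM in EG and 42.2 ± 12.6 in PIS, and was called lower after scaling (-0.82, adjusted p = 0.0155).

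Among the other chains, 1 was higher and 4 lower of 10, beside 42.9% and 7.58% of all genes. COL28A1 was at 1.12, 3.05, 1.54 and 2.79 RPKM in EG, against 6.39, 9.25, 9.25, 6.42 and 15.1 in PIS, without overlap (-1.91 ± 0.27 (SE, limma adjusted p = 0.000287)). Schwann markers summed to 7.24 to 32.9 RPKM in EG and 20.2 to 278 in PIS, with 4 of 4 lower, beside 7.58% of all genes. Their part was not tested. COL6A1 was at 97.2, 191, 182 and 194 RPKM in EG, against 242, 279.9, 334, 262 and 348 in PIS (-0.86 ± 0.22 (SE, limma adjusted p = 0.00623)). COL6A3 averaged 86.5 ± 20.9 RPKM in EG and 142 ± 26.9 in PIS (-0.73 ± 0.21 (SE, limma adjusted p = 0.0132)), and COL6A2, called only after scaling, 153 ± 30.8 and 209 ± 42.1. For COL6A1 and COL6A3 all EG libraries lay below all PIS libraries, EG replicate 1 the lowest. COL8A1, a short-chain collagen of vessel and corneal matrix, averaged 1.19 ± 0.261 RPKM in EG and 2.57 ± 0.846 in PIS (-0.83 ± 0.21 (SE, limma adjusted p = 0.00614)). COL13A1 averaged 4.94 ± 0.637 RPKM in EG and 3.18 ± 0.978 in PIS (0.60 ± 0.20 (SE, limma adjusted p = 0.0241)), a call lost after scaling (0.29, adjusted p = 0.247) and without EG 2 or 3 (adjusted p = 0.0506 to 0.0749).

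COL17A1 was at 98.2, 81.6, 106 and 107 RPKM in EG, against 85.7, 54.7, 108, 48.8 and 2.77 in PIS (1.36 ± 0.77 (SE, limma adjusted p = 0.154)). COL7A1 was at 20.1, 13.8, 16.1 and 18.6 RPKM in EG, against 14.7, 8.84, 14.003, 14.9 and 0.0452 in PIS (1.31 ± 0.79 (SE, limma adjusted p = 0.176)). Neither was called, and for both PIS replicate 5 lay far below the other PIS libraries. The remaining uncalled members had means of 5.46 ± 0.392 RPKM in EG and 7.26 ± 4.80 in PIS for COL2A1, 7.89 ± 1.46 and 5.80 ± 2.38 for COL27A1, 34.8 ± 4.64 and 37.2 ± 4.08 for COL5A1 (called lower after scaling, -0.44, adjusted p = 0.0377), 22.9 ± 4.41 and 17.4 ± 6.83 for COL8A2, and 3.20 ± 0.556 and 2.04 ± 1.53 for COL23A1.

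**Figure D5:**
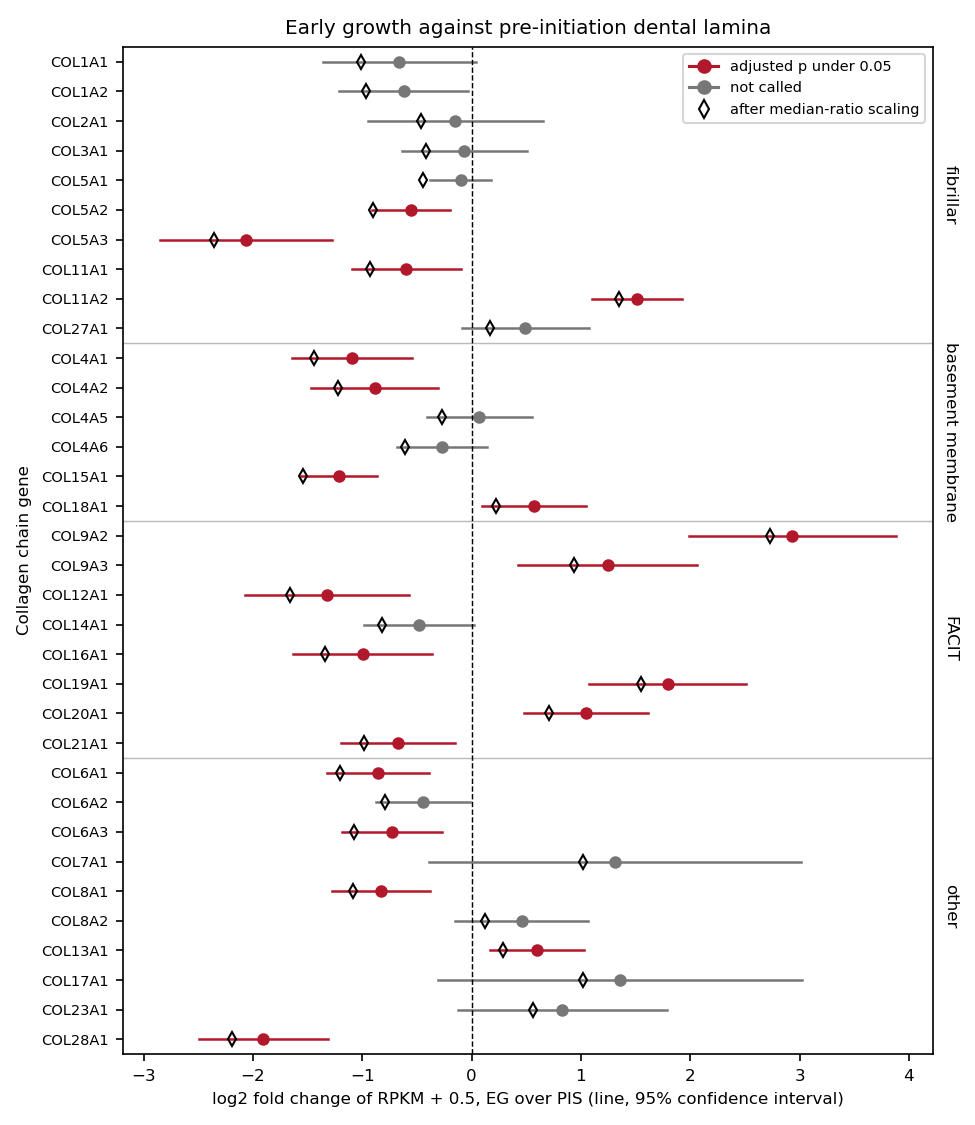
Log2 fold change of each member tested in EG against PIS, by class. Lines are 95% confidence intervals from limma, red marks called members, grey the rest, and open diamonds the value after median-ratio scaling. COL9A2 is the highest at 2.93 and COL5A3 the lowest at -2.07. COL9A2 and COL11A2 passed the filter on low values without any PIS library, and COL19A1 passed it with 1 PIS library.

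Initiation against pre-initiation gave fewer calls. Of 34 members, 3 were higher and 5 lower in IS, beside 22.7% and 2.25% of all genes (25.0% in either direction). With median-ratio scaling there were 0 higher and 6 lower, beside 6.19% and 5.54% (11.7% in either direction), and 5 members were called in both analyses. IS lay wholly above PIS for 4 members and wholly below for 3, beside 24.9% and 2.21% of all genes. COL8A1 was at 0.909, 1.11 and 1.02 RPKM in IS, against 1.98, 2.61, 3.07, 1.54 and 3.67 in PIS, without overlap (-0.98 ± 0.23 (SE, limma adjusted p = 0.01)). COL28A1 was at 3.34, 4.19 and 3.90 RPKM in IS, against 6.39, 9.25, 9.25, 6.42 and 15.1 in PIS, also without overlap (-1.12 ± 0.30 (SE, limma adjusted p = 0.0186)). COL5A3 (-1.24 ± 0.40 (SE, limma adjusted p = 0.0384)), COL20A1 (-0.91 ± 0.29 (SE, limma adjusted p = 0.0364)) and COL15A1 (-0.53 ± 0.18 (SE, limma adjusted p = 0.0433)) were lower with overlapping groups. Their means were 4.11 ± 1.96, 5.20 ± 0.443 and 13.04 ± 2.98 RPKM in IS (SD, n = 3) and 10.6 ± 4.74, 11.1 ± 5.31 and 19.1 ± 3.61 RPKM in PIS (SD, n = 5).

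The 3 higher members were without overlap. COL19A1 was at 2.56, 1.76 and 2.01 RPKM in IS, against 1.67, 0.614, 0.675, 0.928 and 0.0622 in PIS (1.13 ± 0.36 (SE, limma adjusted p = 0.0389)). COL19A1 reached 1 RPKM in 1 PIS library and was tested through IS and EG, where it was higher. Its p is therefore no support for the difference. COL13A1 was at 7.09, 4.57 and 5.98 RPKM in IS, against 4.50, 2.98, 1.98, 3.77 and 2.68 in PIS (0.82 ± 0.22 (SE, limma adjusted p = 0.0183)). COL18A1 was at 66.7, 59.5 and 59.7 RPKM in IS, against 54.9, 30.5, 45.6, 31.9 and 23.9 in PIS (0.78 ± 0.24 (SE, limma adjusted p = 0.0329)). None of the 3 was called after scaling (adjusted p = 0.102, 0.0903 and 0.176). A fit of all 17 libraries left COL18A1, COL15A1, COL20A1 and COL5A3 uncalled (adjusted p = 0.115, 0.18, 0.309 and 0.0562). Every one of the 8 calls was lost without IS replicate 1, and most without other libraries as well. The losses were COL8A1 without IS 1 (adjusted p = 0.0546), COL13A1 without IS 1 or 3 (adjusted p = 0.0708 to 0.1), COL28A1 without IS 1 or 3 (adjusted p = 0.0619 to 0.0844) and COL18A1 without PIS 2, 4 or 5, or IS 1, 2 or 3 (adjusted p = 0.0517 to 0.119). They were also COL15A1 without PIS 3, 4 or 5, IS 1 or 3, or EG 3 or 4 (adjusted p = 0.0577 to 0.192), COL19A1 without PIS 2 or 3, IS 1, 2 or 3, or EG 3 (adjusted p = 0.0526 to 0.145), COL20A1 without PIS 2 or 5, IS 1, 2 or 3, or EG 3 (adjusted p = 0.0508 to 0.128) and COL5A3 without PIS 3, 4 or 5, IS 1 or 3, or EG 3 (adjusted p = 0.051 to 0.173).

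None of the 7 chains followed through each comparison was called in IS against PIS. COL17A1 was at 152, 142 and 149 RPKM in IS, against 85.7, 54.7, 108, 48.8 and 2.77 in PIS (1.95 ± 0.84 (SE, limma adjusted p = 0.101)). All IS libraries lay above all PIS libraries, and leaving out PIS replicate 5 gave a call for COL17A1 (1.06, adjusted p = 0.00897). COL4A1 was at 29.1, 45.1 and 30.5 RPKM in IS, against 46.6, 49.9, 64.03, 58.7 and 88.1 in PIS (-0.80 ± 0.28 (SE, limma adjusted p = 0.0523)). It was called lower after scaling (-1.09, adjusted p = 0.0415) and without IS 2, PIS 1 or EG 1 (adjusted p = 0.0173 to 0.0419), and its groups did not overlap. COL4A2 had a similar fold change without a call (-0.69, adjusted p = 0.0997), and was called without EG 1 (adjusted p = 0.0359). COL1A1 was at 1635, 5587 and 2097 RPKM in IS, with replicate 2 above every PIS library (-0.26 ± 0.35 (SE, limma adjusted p = 0.602)). COL1A2 (-0.35 ± 0.30 (SE, limma adjusted p = 0.387)) was high in the same library, and was called lower without it (-0.83, adjusted p = 0.0224). COL3A1 (0.06 ± 0.29 (SE, limma adjusted p = 0.883)) and COL7A1 (0.83 ± 0.86 (SE, limma adjusted p = 0.485)) had signs that other settings turned.

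Early growth against initiation gave 2 members higher and 1 lower of 34, beside 1.64% and 0.512% of all genes (2.15% in either direction). After scaling 2 were higher and 0 lower, beside 1.38% and 0.520% (1.90% in either direction). COL20A1 was at 24.1, 21.7, 23.6 and 17.4 RPKM in EG, against 4.71, 5.57 and 5.32 in IS (1.95 ± 0.30 (SE, limma adjusted p = 0.00561)). COL11A2 was at 1.01, 1.14, 1.69 and 0.777 RPKM in EG, against 0.165, 0.200 and 0.136 in IS (1.28 ± 0.22 (SE, limma adjusted p = 0.0088)). For both, all EG libraries lay above all IS libraries. COL11A2 was tested only because 3 EG libraries reached 1 RPKM, so its p is no support here either. Leaving out IS replicate 3 ended the COL11A2 call (adjusted p = 0.0502). A fit of all 17 libraries called neither COL20A1 (adjusted p = 0.223) nor COL11A2 (adjusted p = 0.241). COL6A2 was at 107, 171, 169 and 167 RPKM in EG, against 255, 401 and 246 in IS (-0.96 ± 0.23 (SE, limma adjusted p = 0.0487)). Its groups did not overlap, but the call was lost after scaling (adjusted p = 0.0811) and without PIS 2 or 4, IS 1, 2 or 3, or EG 1, 2, 3 or 4 (adjusted p = 0.052 to 0.276).

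The followed chains were not called between EG and IS. The log2 fold changes were -0.40, adjusted p = 0.684 for COL1A1, -0.27, adjusted p = 0.766 for COL1A2, -0.13, adjusted p = 0.897 for COL3A1, -0.30, adjusted p = 0.712 for COL4A1 and -0.20, adjusted p = 0.832 for COL4A2 by limma. They were 0.48, adjusted p = 0.865 for COL7A1 and -0.59, adjusted p = 0.826 for COL17A1. All EG libraries were above all IS libraries for COL7A1 and below them for COL17A1. Of the 34 members, 4 had EG wholly above IS and 9 had EG wholly below IS, beside 14.2% and 8.81% of all genes. Over the 3 stages together, limma's F test called 20 of 34 members, beside 45.4% of all genes, and 19 after scaling, beside 28.2%, with 17 in both.

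By group means, the 36 members tested in either fit peaked in RT for 11, in PIS for 10, in IS for 10 and in EG for 5. RT held the lowest mean of 17 of them. Such counts were not made over all genes, so they do not set the collagens apart. Of all genes tested, limma called 36.3% lower in RT than in lamina. The 7 fibrillar members that peaked in RT were COL1A1, COL1A2, COL2A1, COL5A2, COL11A1, COL11A2 and COL27A1. Of the 6 basement membrane chains 4 peaked in PIS and 2 in IS. Of the 10 members in the other class, 5 peaked in IS. COL16A1, whose mean was highest in IS, stood at 42.6, 109 and 41.2 RPKM there. Without IS replicate 2, an omission chosen after the values were seen, COL16A1, COL3A1, COL6A1 and COL6A3 peaked in PIS and COL23A1 moved to IS, which left 7 members that peaked in IS, 4 of them in the other class.

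The proteins that fold, trim and crosslink collagen were measured through 27 genes of a list of 29. In RT against lamina 8 were higher and 4 lower, beside 10.5% and 36.3% of all genes, and 13 and 4 after scaling, beside 20.0% and 17.5%. SERPINH1, the collagen chaperone HSP47, averaged 163 RPKM in RT and 56.8 in lamina (log2 fold change 1.45, adjusted p = 1.84e-05 by limma). LOXL4, a lysyl oxidase-like crosslinking enzyme, averaged 40.4 RPKM in RT and 1.42 in lamina (log2 fold change 5.03, adjusted p = 1.56e-09). PLOD2, a hydroxylase of the lysines used in crosslinks (log2 fold change 1.70, adjusted p = 0.000922), and PCOLCE, an enhancer of procollagen trimming (log2 fold change 1.35, adjusted p = 0.000129), were higher too. LOXL1 was lower (log2 fold change -1.15, adjusted p = 5.8e-06). In EG against PIS 9 were higher and 7 lower, beside 42.9% and 7.58% of all genes (6 and 10 after scaling, beside 16.7% and 15.4%), with LOXL4 (log2 fold change 3.00, adjusted p = 4.23e-05) and PLOD2 (log2 fold change 2.04, adjusted p = 0.00281) higher and LOXL3 (log2 fold change -1.31, adjusted p = 0.00616) and the procollagen protease gene BMP1 (log2 fold change -0.91, adjusted p = 0.00356) lower. In IS against PIS 3 were higher and 0 lower, beside 22.7% and 2.25% of all genes (1 and 1 after scaling, beside 6.19% and 5.54%). In EG against IS 4 were higher and 0 lower, beside 1.64% and 0.512% (2 and 0 after scaling, beside 1.38% and 0.520%).

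Collagen receptors were all measured, 8 of 8. In RT against lamina 4 were higher and 3 lower, beside 10.5% and 36.3% of all genes (4 and 2 after scaling, beside 20.0% and 17.5%). ITGA10, an integrin subunit known from cartilage cells, averaged 24.5 RPKM in RT and 1.79 in lamina (log2 fold change 3.47, adjusted p = 1.05e-07 by limma). ITGA1, a subunit with a preference for type IV collagen, averaged 1.85 RPKM in RT and 6.27 in lamina (log2 fold change -1.48, adjusted p = 3.2e-05). The epithelial receptor kinase gene DDR1 was lower (log2 fold change -0.89, adjusted p = 0.00643) and its mesenchymal relative DDR2 higher (log2 fold change 0.58, adjusted p = 0.0412). In EG against PIS ITGA2 (log2 fold change 2.16, adjusted p = 0.0076) and DDR1 (log2 fold change 0.63, adjusted p = 0.0246) were higher and ITGA11 (log2 fold change -1.08, adjusted p = 0.0323) lower, beside 42.9% and 7.58% of all genes, and after scaling 1 was higher and 3 lower, beside 16.7% and 15.4%. In IS against PIS and in EG against IS limma called 0 of 8, beside 25.0% and 2.15% of all genes, and 2 of 8 had an unadjusted p under 0.05 in each.

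In the RefSeq gene table of the alligator assembly rAllMis1, 36 of the 39 symbols were matched, all but COL3A1, COL5A2 and COL25A1. Of these, 5 pairs lay next to each other with 0 protein-coding genes between, namely COL4A1 and COL4A2, COL4A3 and COL4A4, COL4A5 and COL4A6, COL6A1 and COL6A2, and COL9A1 and COL19A1. COL18A1 followed COL6A1 with 2 genes between. In RT against lamina, both members were called lower for COL4A5 and COL4A6 and for COL6A1 and COL6A2, both called higher for COL9A1 and COL19A1, and neither called for COL4A1 and COL4A2. COL9A1 was tested through RT, where it was high, so its call is no support. Neighbours called alike were not counted over all genes, so these pairs do not set the collagens apart. Reads of overlapping neighbours cannot be told apart where strand was not used in counting, and the strand setting is not given in the sources used here. The table also lists COL7A1L, which the naming rule left out and which reached at most 0.0626 RPKM.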

How the data were processed

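RNA from dissected dental lamina and replacement teeth was sequenced from TruSeq RNA V2 libraries, per the labels. The authors deposited RPKM values per gene, scaled to gene model length and to each library's alignments. The submitters' processing notes name TopHat2 2.1.0 and Partek 3, without a role. Genome build, annotation and strand setting: not given in the sources used here. Positions and sequences are therefore not shown. Groups came from sample titles. The separate label for the tooth cycle stage names pre-initiation throughout, whatever the title, and was left aside.

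RPKM were taken as log2(RPKM + 0.5) and fitted with limma 3.58.1 in R 4.3.3 as group means, with trended empirical Bayes moderation. The filter kept a gene where 3 or more of the fitted libraries reached 1 RPKM, which left 12684 genes for the 12 lamina libraries and 12904 for all 17. P-values were Benjamini-Hochberg adjusted over all genes tested, and a gene was called under 0.05. Scaling to median ratios used factors of 0.758 to 1.22 on the same genes. The fit was tested on simulated data with 200 changed genes. Alternatives were other pseudocounts (0.1 and 1), no filter, scaling, a replicate block, all 17 libraries in the fit, other references, and libraries left out singly or in pairs. Count tools were not used, since the values are RPKM.

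Members called in a comparison are given with a fold change and test, as are COL1A1, COL1A2, COL3A1, COL4A1, COL4A2, COL7A1 and COL17A1 in each comparison. The members, classes, pathway and marker lists, and the paired omissions were chosen with earlier results of these data known.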

Additional observations from a re-analysis of the deposited data

Results flagged for a closer look

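In 13 of 108 groups of 4 or 5 libraries (12.04%), 1 library stood apart from the rest of its group by Dixon's criterion at the 95% level. Its nominal rate of about 1 group in 20 is for independent, normally distributed values. RPKM were used here without logs, and the members come from the same libraries. The share is therefore no measure of an excess over that rate. RT replicate 2 stood above the other RT libraries for 4 members. These were the FACITs COL14A1 (32.1 RPKM in RT replicate 2, against 3.48 to 7.63 in the others), COL20A1 (42.1 RPKM in RT replicate 2, against 1.63 to 8.26 in the others) and COL9A3 (13.1 RPKM in RT replicate 2, against 0.538 to 2.78 in the others), and COL7A1 (27.3 RPKM in RT replicate 2, against 2.81 to 7.27 in the others). EG replicate 1 stood below the other EG libraries for COL4A1 (15.1 RPKM in EG replicate 1, against 32.1 to 35.3 in the others), COL4A2 (7.87 RPKM in EG replicate 1, against 17.9 to 19.9 in the others), COL6A1 (97.2 RPKM in EG replicate 1, against 182 to 194 in the others) and COL6A2 (107 RPKM in EG replicate 1, against 167 to 171 in the others). The fibroblast and mesenchyme markers summed to 914 RPKM in that library, the lowest of the EG sums, and their part was not tested. COL5A1 was 56.8 RPKM in RT replicate 5, against 16.8 to 21.4 in the others, and 30.2 RPKM in PIS replicate 2, against 37.8 to 40.6 in the others. COL9A2 was 2.02 RPKM in RT replicate 1, against 0.166 to 0.625 in the others. COL3A1 was 719 RPKM in PIS replicate 5, against 439 to 518 in the others. COL4A5 was 46.8 RPKM in PIS replicate 1, against 19.7 to 24.8 in the others.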

How the results depend on the processing

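In RT against lamina the members called numbered 9 higher and 14 to 17 lower without any one library, and 4627 to 6531 genes were called. Without RT replicates 3 and 5 the genes called fell to 3160, from 6038. In EG against PIS, leaving out one library gave 4 to 9 members higher, 9 to 15 lower and 4756 to 6542 genes called; scaling gave 3 higher and 4077 genes instead of 6404, and all 17 libraries in the fit gave 6 lower. In IS against PIS the ranges were 0 to 4, 0 to 7 and 978 to 3343, and 1488 genes instead of 3166 were called after scaling. Members higher were 0 after scaling and 1 without a filter. Members lower were 2 with all 17 libraries, without a filter or without PIS 4 and 5, and 3 with the replicate block. In EG against IS the ranges were 1 to 3, 0 to 3 and 69 to 439. With all 17 libraries 0 members were higher and 107 genes called, and 597 were called without PIS 4 and 5, instead of 273. Members lower were 0 with all 17 libraries, scaling, no filter or a pseudocount of 0.1, 2 with a pseudocount of 1 or the block, and 3 without PIS 4 and 5. The F test called 13 to 20 members and 4306 to 5826 genes without one library, 9 members with all 17 and 3577 genes after scaling.

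Signs that turned belonged to uncalled results. In EG against IS, leaving out one library gave -0.76 to 0.13 for COL1A1, -0.56 to 0.20 for COL1A2, -0.31 to 0.15 for COL3A1 and -0.33 to 0.10 for COL4A2, with positive values without IS 2, and without EG 1 for COL3A1 and COL4A2. In EG against PIS COL3A1 turned without PIS 4 and 5 (0.0041), with the block (0.049) and in the range over single omissions (-0.21 to 0.22). In IS against PIS the ranges were -0.79 to 0.10 for COL1A1, -0.21 to 0.24 for COL3A1 and -0.092 to 1.11 for COL7A1. COL3A1 also turned after scaling (-0.24), and COL7A1 without PIS 4 and 5 (-0.024) and with the block (-0.036). In RT they were COL4A1, COL4A2 and COL7A1 with PIS alone (-0.32, -0.29 and 0.19) and without RT 3 and 5 (-0.16, -0.23 and 0.030). The COL1A1 to COL1A2 ratio in EG against PIS gave -0.093 to 0.0012 over single omissions and 0.00012 without PIS 4 and 5. The causes were not tested. Same-numbered libraries correlated between -0.476 and 0.358 in their deviations, with 8 of 22 such pairs above 0.1. Of the 17 libraries, 5 correlated best with their own number. The labels do not state a pairing by number, and these correlations neither show one nor exclude it. With the replicate block 67 of 78 member results, called or not, kept their sign and their side of the threshold, 7 calls were lost, 2 were gained and 2 signs turned. The losses were COL11A1, COL13A1 and COL18A1 in EG against PIS (adjusted p = 0.0668, 0.0589 and 0.119) and COL13A1, COL15A1, COL18A1 and COL20A1 in IS against PIS (0.0512, 0.0785, 0.0829 and 0.122). The gains were COL7A1 in EG against PIS (0.39, adjusted p = 0.0271) and COL17A1 in IS against PIS (0.99, adjusted p = 0.0162). Depth cannot show differences for members near 0, such as COL4A3 and COL4A4.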

Other observations

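Within IS, replicate 2 was the highest of the 3 libraries for 24 of 36 members, with COL1A1, COL3A1, COL6A1, COL12A1 and COL16A1 among them, and replicates 1 and 3 for 9 and 3. The fibroblast and mesenchyme markers summed to 1396, 1949.9 and 1283 RPKM in IS replicates 1 to 3, and the epithelial markers to 779.8, 660.4 and 713. Within EG, replicate 1 was the lowest of the 4 libraries for 18 of 36 members, and within PIS replicate 2 was the highest for 0. These counts of highest and lowest libraries were not made over all genes, so they do not set the collagens apart. COL25A1, which was not tested, stood at 0.0133, 0, 0, 0.0662 and 0.0651 RPKM in RT, 2.87, 0.916, 0.306, 0.0386 and 0.477 in PIS, 0.631, 0.590 and 0.463 in IS and 0.0657, 0.157, 0.280 and 0.117 in EG. The highest RT value was 0.0662 RPKM and the highest EG value 0.280, against 2.87 in PIS.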
